A study of Mus musculus with 18 samples.

Results

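The members described here are the genes of the mitochondrial solute carrier family 25 that the deposited tables list, namely every row whose gene symbol begins with Slc25a and a number. The rule found 38 members among 14411 genes listed in at least 1 of 3 tables. Brain listed 38 of them among 13957 genes, Retina 35 among 12827 and Choroid 22 among 7569. All 22 Choroid members were also in the other tables, 13 members were listed in 2 tables, and Slc25a13, Slc25a18 and Slc25a34 were listed for Brain only. A further 9 family genes (Slc25a2, Slc25a21, Slc25a31, Slc25a41, Slc25a43, Slc25a48, Slc25a51, Slc25a53 and Slc25a54) were looked for under these symbols and were not analysed here.

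The study isolated ribosome-bound RNA from endothelial cells of mouse brain, retina and choroid. All 6 groups carried the same genotype, written Cdh5(PAC)-cre/ERT2+; NuTRAP+, and all mice had received tamoxifen. Cdh5(PAC)-cre/ERT2 is a recombinase under the promoter of vascular endothelial cadherin that works once tamoxifen is given, and NuTRAP is a reporter that then tags ribosomes with GFP. RNA bound to anti-GFP beads formed the Positive fraction, and a portion of the same homogenate kept back before the pull-down formed the Input fraction. Each tissue gave 3 Input and 3 Positive libraries, 18 in all. Age, sex and the number of animals behind a library are not given in the labels, so the tests below see only how far these libraries scatter, some of which may be technical. In bulk fractions, fewer cells of a type and less RNA per cell cannot be told apart.

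Family 25 carriers are small proteins of the inner mitochondrial membrane that exchange nucleotides, phosphate, amino acids, carboxylates, cofactors and metals between the cytosol and the matrix. They set which fuels mitochondria can oxidise and how ATP, iron and reducing equivalents move in and out of the organelle. Endothelial cells draw much of their ATP from glycolysis, whereas neurons and photoreceptors depend strongly on oxidative phosphorylation and on the shuttles that these carriers form.

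The listed genes summed to 28128866 to 43219831 estimated counts per Brain library, 12325658 to 36157140 per Retina library, 2018126 to 10031274 per Choroid Input library and 713733 to 2717264 per Choroid Positive library. Of 10 endothelial markers, 10 were higher in Positive than in Input in each tissue, and their summed share of listed counts went from 0.0143 to 0.0173% to 0.455 to 0.501% in Brain, from 0.004505 to 0.00593% to 0.221 to 0.4196% in Retina and from 0.136 to 0.225% to 1.04 to 1.36% in Choroid. Photoreceptor markers (6 of 6 listed, none past the threshold) held 3.89 to 4.74% of counts in Retina Input and 3.16 to 5.296% in Retina Positive. In Choroid Positive replicate 2, the shallowest library, the ribosomal RNA gene Rn45s took 13.0261% of listed counts, against 1.09% or less in each of the other libraries.

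Added up, the 38 members took 0.371% ± 0.00635 (SD, n = 3) of the counts of Brain Input and 0.308% ± 0.00318 of those of Brain Positive. The share was 0.296% ± 0.00891 against 0.263% ± 0.0173 in Retina over 35 members, and 0.274% ± 0.02196 against 0.168% ± 0.0116 in Choroid over 22. In each tissue the Positive libraries lay below the Input libraries without overlap. Slc25a3, Slc25a4 and Slc25a5 alone supplied between 38.9 and 59.4% of the members' counts, depending on the library.

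Positive was compared with Input in each tissue to find which carriers were enriched or depleted in endothelial ribosomes. Calls below are an adjusted p under 0.05 in edgeR's quasi-likelihood test, with Benjamini-Hochberg adjustment over all genes of the table. The test did not pair Input and Positive libraries of the same homogenate, and calls that changed with such pairing (the replicate block) are named below. In Brain, 12 of 38 members were higher in Positive, 17 were lower and 9 did not pass, while 38.3% of all 13957 genes were higher and 39.7% lower (78.1% in either direction). In Retina, 4 of 35 members were higher and 6 lower, against 15.3% and 10.8% of 12827 genes (26.1% in either direction). In Choroid, 2 of 22 members were higher and 3 lower, against 16.3% and 20.2% of 7569 genes (36.6% in either direction). The members' median log2 difference was -0.14 in Brain, -0.10 in Retina and -0.46 in Choroid, beside -0.018, -0.034 and -0.013 for all genes of those tables. The tables kept a gene when its raw value reached 50 in all libraries of at least 1 fraction. All 38 Brain members met that in both fractions, as did 12820 of the 13957 Brain genes. In Retina, Slc25a30 met it through Input alone and Slc25a24 and Slc25a45 through Positive alone, beside 874 and 329 of all 12827 genes. In Choroid 16 of 22 members met it through Input alone and Slc25a24 and Slc25a28 through Positive alone, beside 4439 and 137 of all 7569 genes. Of the 5 Choroid calls, those of Slc25a16, Slc25a23 and Slc25a25 are on members listed through Input alone, and the part of that filter in the falls of Slc25a16 and Slc25a23 was not tested. The Choroid call of Slc25a24 and the Retina calls of Slc25a24 and Slc25a45 are on members listed through Positive alone. The part of the filter in those rises was not tested either.

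**Figure D1:**
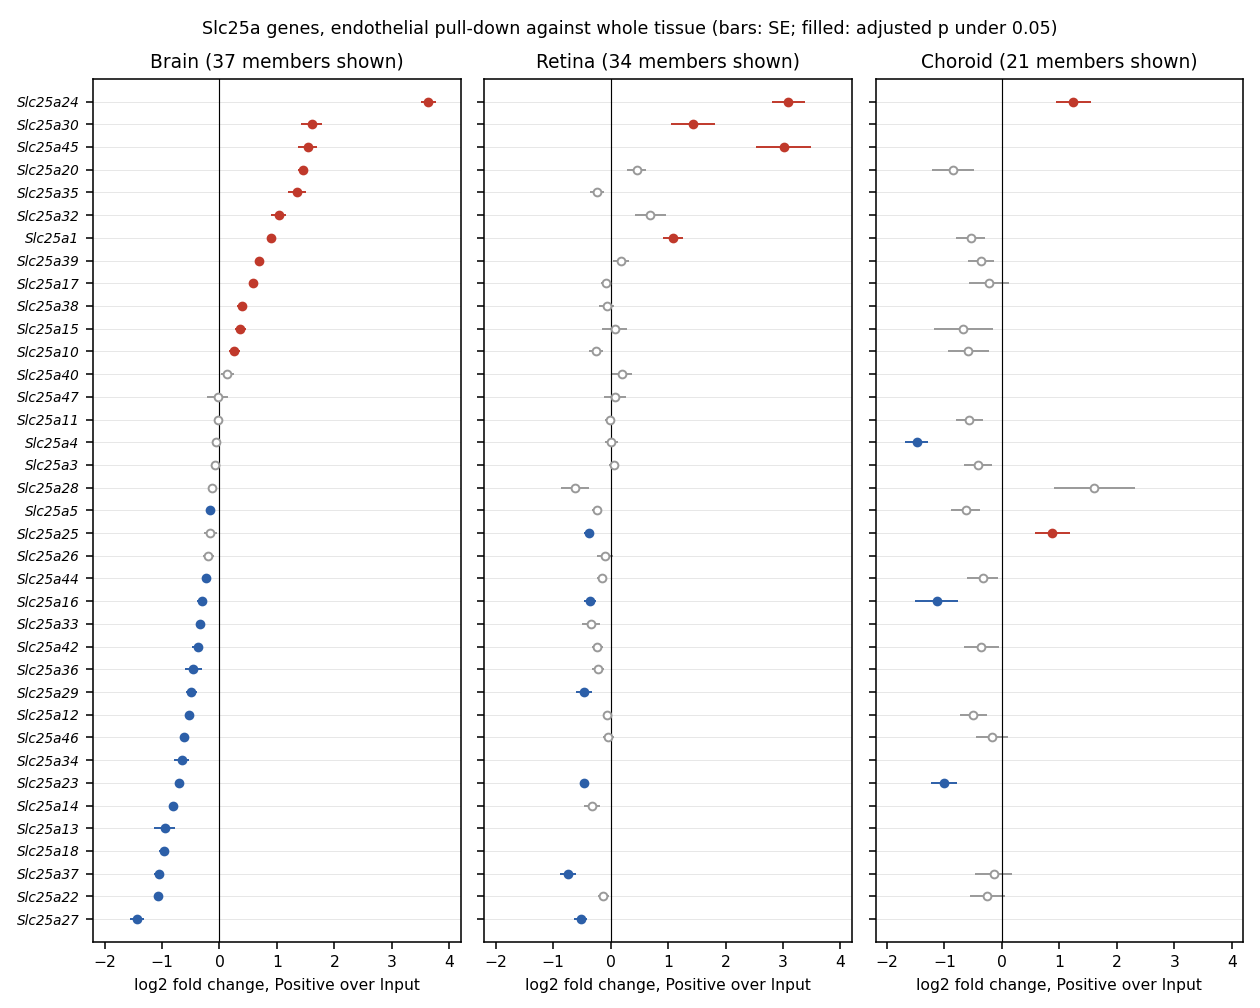
Log2 difference of Positive over Input (horizontal axis) with its SE for the listed members in Brain, Retina and Choroid, with 1 left out. Filled points passed an adjusted p of 0.05 in edgeR's quasi-likelihood test, red for higher and blue for lower in Positive, and Slc25a24 lies on the higher side in all 3 tissues.

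The largest rise past the threshold in each tissue belonged to Slc25a24, 1 of 3 listed carriers that exchange ATP-Mg for phosphate when cytosolic calcium rises and so adjust the adenine nucleotide pool of the matrix. Slc25a24 was higher in Positive in all 3 tissues, its relative Slc25a23 was lower in all 3, and Slc25a25 was lower in Retina and higher in Choroid. In Retina and Choroid, Slc25a24 was listed through Positive alone, and in Choroid Slc25a23 was listed through Input alone. Slc25a24 lies on the forward strand of mouse chromosome 3 (mm10, 109123149 to 109168409) and Slc25a23 on the reverse strand of chromosome 17 (57043711 to 57059863). The bases before their RefSeq transcription starts are shown because the pair moved in opposite directions in every tissue. They are given 5′ to 3′ on the gene's strand (RefSeq GRCm38.p6), at chr3:109122899-109123148 (+) and chr17:57059864-57060113 (−), with capitals on matches to a GC box (GGGCGG) or a CCAAT box (CCAAT) on either strand.
Slc25a24: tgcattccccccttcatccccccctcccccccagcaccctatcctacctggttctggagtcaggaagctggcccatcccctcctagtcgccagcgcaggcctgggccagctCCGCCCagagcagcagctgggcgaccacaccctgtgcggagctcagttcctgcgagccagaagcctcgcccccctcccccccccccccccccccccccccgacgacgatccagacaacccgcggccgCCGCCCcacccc
Slc25a23: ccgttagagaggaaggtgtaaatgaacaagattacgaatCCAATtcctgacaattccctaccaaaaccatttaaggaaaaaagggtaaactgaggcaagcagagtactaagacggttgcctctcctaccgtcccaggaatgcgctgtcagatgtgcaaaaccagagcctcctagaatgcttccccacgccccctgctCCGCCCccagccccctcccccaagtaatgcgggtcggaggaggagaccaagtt
The Slc25a24 window held 2 GC box matches and no CCAAT box, and the Slc25a23 window held 1 of each.

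In Brain, Slc25a24 stood at 2.81, 2.47 and 2.99 CPM (library-scaled counts) in the 3 Input libraries and at 37.1, 35.6 and 30.1 in the 3 Positive libraries. Every Positive library was far above every Input library, with a log2 difference of 3.63 ± 0.13 (SE; edgeR adjusted p = 3.86e-09). Retina gave 2.86, 2.47 and 1.59 CPM in Input and 15.7, 17.8 and 26.5 in Positive, again without overlap (3.09 ± 0.28, edgeR adjusted p = 2.03e-04). The highest of these, Retina Positive replicate 3, was also the Retina library with the largest shares of endothelial (0.42%) and of astrocyte and Mueller glia markers (0.483%) and the smallest share of photoreceptor markers (3.16%). Choroid Input already held 35.3, 22.1 and 36.6 CPM, and Choroid Positive 74.97, 93.9 and 59.1. The Choroid groups did not overlap either, with a smaller difference of 1.24 ± 0.304 (edgeR adjusted p = 0.00673). Fibroblast markers (5 of 5 listed) rose beside Slc25a24 in Brain, from 0.0121 to 0.0129% to 0.138 to 0.205% of counts, and fell in Choroid from 0.282 to 0.372% to 0.0292 to 0.0501%. In Retina, where 2 of 5 were listed, they stood at 0.00122 to 0.00142% in Input and 0.000802 to 0.00119% in Positive. Mural cell markers (5 of 6 listed, 2 higher and 3 lower) went from 0.0142 to 0.0156% to 0.111 to 0.152% in Brain, and the part of these cells in the rise was not tested.

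Slc25a23 was the more abundant carrier of this group in Brain Input, at 385, 446 and 429 CPM, and fell to 252, 247 and 278 in Brain Positive (-0.696 ± 0.075, edgeR adjusted p = 1.33e-05). It fell from 215, 201 and 186 to 150.4, 141 and 146 CPM in Retina (-0.46 ± 0.081, edgeR adjusted p = 0.00471). In Choroid it fell from 118, 100.1 and 126 to 54.1, 63.6 and 54.5 CPM (-1.01 ± 0.23, edgeR adjusted p = 0.00436). Input and Positive libraries did not overlap in any of the 3 tissues.

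Slc25a25 did not pass in Brain, where Input held 107, 99.2 and 104 CPM and Positive 111, 83.6 and 83.01. Positive replicate 1 overlapped the Input libraries, and without it the difference was -0.30 with an edgeR adjusted p of 0.0046. In Retina the Positive libraries (147, 131 and 122 CPM) lay below the Input libraries (170.2, 172 and 177), by -0.37 ± 0.086 (edgeR adjusted p = 0.0152). That call was lost on leaving out any 1 of the 3 Input libraries (edgeR adjusted p 0.0528 to 0.063). In Choroid the order turned, with 40.5, 39.7 and 25.2 CPM in Input and 62.9, 79.6 and 52.2 in Positive (0.88 ± 0.31, edgeR adjusted p = 0.0412). The Choroid groups did not overlap, but the call was lost with the authors' own scaling factors (edgeR adjusted p = 0.0562) and without any 1 of the libraries other than Positive replicate 3 (0.0604 to 0.175).

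**Figure D2:**
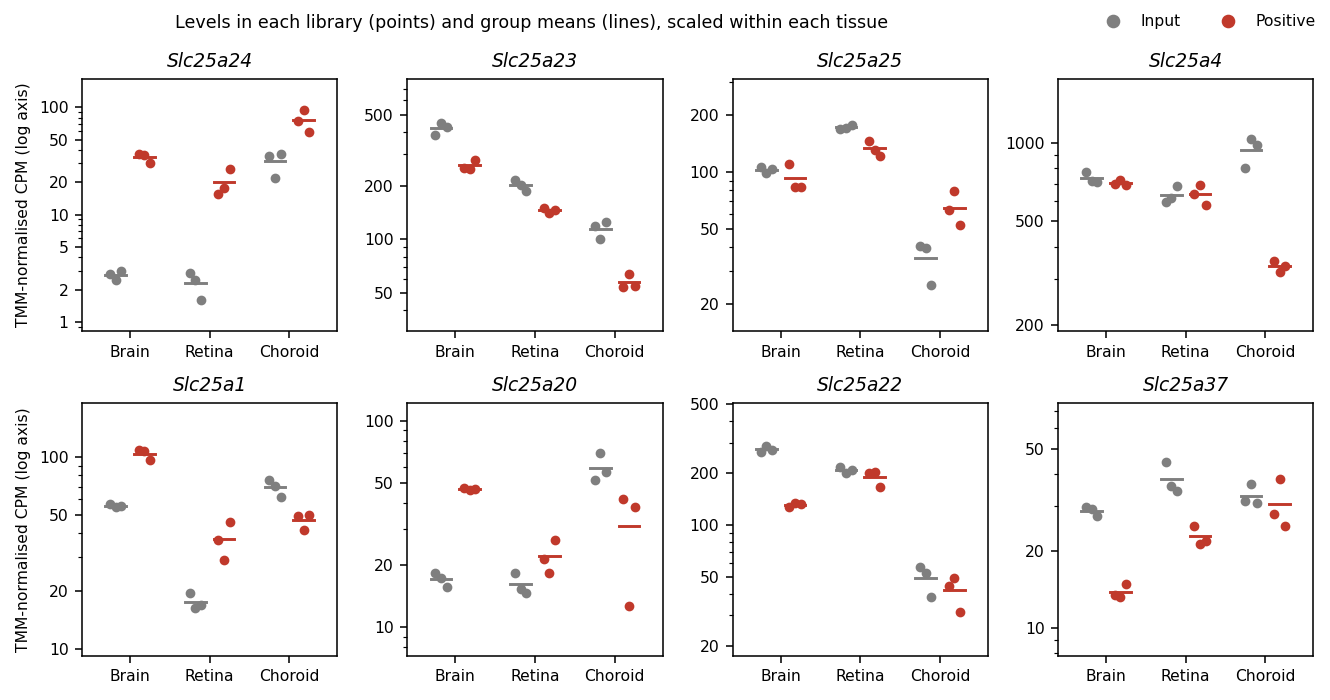
CPM (library-scaled counts) on a log axis for 8 members, 1 point per library, with Input and Positive side by side for each tissue (3 libraries each, scaled within the tissue's own table). Slc25a24 rises and Slc25a23 falls in each tissue, while Slc25a20 is clearly separated in Brain and Slc25a4 in Choroid.

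Per length of exon, the balance between these relatives differed between fractions and tissues. The ratio of Slc25a23 to Slc25a24, each as CPM per kilobase, was 99.6 ± 15.2 (SD, n = 3) in Brain Input and 4.97 ± 0.889 in Brain Positive. It was 59.03 ± 14.6 against 4.98 ± 1.32 in Retina and 2.44 ± 0.431 against 0.502 ± 0.0841 in Choroid. Slc25a24 was thus above Slc25a23 per length only in Choroid Positive, in 3 of 3 libraries (0.468, 0.439 and 0.597). With the longest transcript in place of all exons as the length, the ratios were 157 and 7.83 in Brain, 92.95 and 7.84 in Retina, and 3.85 and 0.7897 in Choroid. The ratio of Slc25a25 to Slc25a24 was 16.4 ± 1.203 in Brain Input but 1.18 ± 0.144 in Brain Positive, and 34.96 ± 11.97 against 3.11 ± 1.04 in Retina. It was 0.529 ± 0.244 and 0.374 ± 0.01002 in Choroid, where the Input libraries overlapped the Positive ones.

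**Figure D3:**
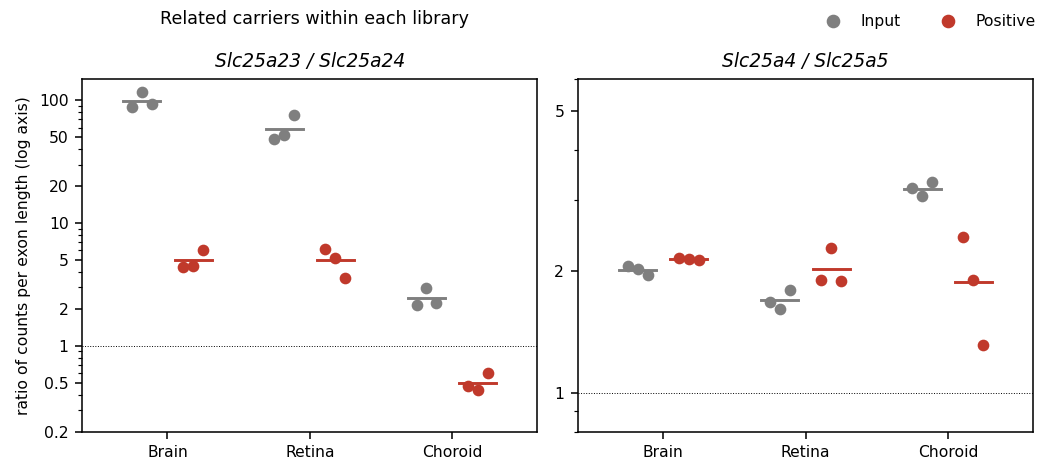
Ratio of Slc25a23 to Slc25a24 and of Slc25a4 to Slc25a5 (CPM per kilobase of exon, log axis), 1 point per library for Input and Positive of each tissue. The Slc25a23 to Slc25a24 ratio lies below 1 in the 3 Choroid Positive libraries, and the Slc25a4 to Slc25a5 ratio is highest in Choroid Input.

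The adenine nucleotide translocases Slc25a4 and Slc25a5 exchange matrix ATP for cytosolic ADP. They ranked first and second per length among the members in all 6 groups. Slc25a4 fell in Choroid and did not pass in Brain or Retina, and Slc25a5 passed in Brain alone, with a small fall. Slc25a5 has a processed copy in the genome (Slc25a5-ps in GENCODE vM21), so its values are uncertain where reads were shared between copies.

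Slc25a4 in Choroid stood at 804, 1043 and 981 CPM in Input and 351, 319.8 and 336 in Positive. Every Input library was far above every Positive library, and the difference of -1.49 ± 0.198 was the largest fall of any member there (edgeR adjusted p = 1.02e-04). Brain gave 778, 719 and 707 CPM in Input and 694, 724 and 692 in Positive, which overlapped (-0.063 ± 0.058, edgeR adjusted p = 0.337). Retina gave 592, 615 and 685 and 637, 694 and 579.7 CPM, which overlapped as well (0.014 ± 0.11, edgeR adjusted p = 0.934). Other cell types also moved in Choroid, and their part in the fall of Slc25a4 was not tested. Retinal pigment epithelium markers (4 of 5 listed, 4 of 4 lower) summed to 1.13 to 1.68% of counts in Input and 0.0752 to 0.109% in Positive, and melanocyte markers (5 of 5 listed and lower) to 0.537 to 1.09% and 0.0581 to 0.192%. Skeletal muscle markers (4 of 6 listed, 1 lower) summed to 0.0138 to 0.0528% in Input and 0.00488 to 0.0299% in Positive, with overlapping libraries.

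Slc25a5 in Brain was at 265, 249 and 253 CPM in Input and 225, 236 and 226 in Positive. The groups did not overlap, but the difference was only -0.16 ± 0.058 (edgeR adjusted p = 0.0312). That call was lost with the authors' factors (-0.098, edgeR adjusted p = 0.158) and on leaving out Input replicate 2, Input replicate 3, Positive replicate 1 or Positive replicate 3 (0.0509 to 0.0931). Retina held 247, 267 and 266 CPM in Input and 234, 212 and 214 in Positive (-0.24 ± 0.081, edgeR adjusted p = 0.0624). Choroid held 175, 238 and 206 and 101, 118 and 179.7 CPM (-0.63 ± 0.25), with an edgeR adjusted p of 0.0653 that became 0.0242 with the replicate number as a block, 0.0189 without Positive replicate 3, 0.046 with the authors' factors and 0.0216 over the genes above the median level alone. The ratio of Slc25a4 to Slc25a5 per length was 2.01 ± 0.0509 and 2.15 ± 0.00868 in Brain Input and Positive, 1.697 ± 0.0954 and 2.03 ± 0.225 in Retina, and 3.203 ± 0.129 and 1.88 ± 0.564 in Choroid. The 3 Choroid Positive libraries (2.44, 1.9001 and 1.31) all lay below the 3 Choroid Input libraries.

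Of 4 carboxylate and acylcarnitine carriers, 3 were higher in Brain Positive and none was lower (38.3% and 39.7% of all genes). In Retina 1 was higher (15.3% of all genes), and in Choroid none passed in either direction (36.6% of all genes did). Slc25a1, which exports citrate for lipid synthesis, was higher in Brain and Retina. Slc25a20, which carries acylcarnitines inward for fatty acid oxidation, was higher in Brain. Fibroblast markers (5 of 5 higher) and mural cell markers (2 of 5 higher, 3 lower) had larger summed shares in the same Brain libraries, from a mean of 0.0124% ± 0.000457 (SD, n = 3) to 0.168% ± 0.0338 and from 0.0151% ± 0.000786 to 0.1296% ± 0.0209, and their part in these rises was not tested. Their upstream windows are shown because both held several of the searched motifs, with capitals on GC box, CCAAT box or ETS core (CCGGAA) matches on either strand, at chr16:17928220-17928469 (−) for Slc25a1 and chr9:108661886-108662135 (+) for Slc25a20 (RefSeq GRCm38.p6).
Slc25a1: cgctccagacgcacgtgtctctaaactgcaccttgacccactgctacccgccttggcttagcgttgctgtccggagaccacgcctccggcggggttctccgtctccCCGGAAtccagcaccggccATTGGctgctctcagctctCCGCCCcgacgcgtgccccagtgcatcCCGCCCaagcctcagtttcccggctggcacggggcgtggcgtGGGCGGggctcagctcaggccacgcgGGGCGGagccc
Slc25a20: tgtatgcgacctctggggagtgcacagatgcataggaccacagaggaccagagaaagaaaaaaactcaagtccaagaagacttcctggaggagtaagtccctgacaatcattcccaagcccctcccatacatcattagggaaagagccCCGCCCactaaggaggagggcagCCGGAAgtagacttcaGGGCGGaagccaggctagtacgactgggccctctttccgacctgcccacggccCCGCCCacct
The Slc25a1 window held 4 GC boxes, 1 CCAAT box and 1 ETS core, and the Slc25a20 window 3 GC boxes and 1 ETS core. Across the 30 members with a window in the RefSeq table, 73.3% held a GC box against 35.4% of 27025 genes, 53.3% a CCAAT box against 37.5%, and 26.7% an ETS core against 13.6%. The 27025 are all genes with a window, not only those that passed the filter on raw values as the members did. The sets are therefore unlike, and the shares cannot show a trait of the family. The motif of the factor NRF1 (its palindromic form) was found in 1 of 30 members (3.33%) against 4.23% of genes, and an ERR motif (TCAAGGTCA) in none against 0.422%.

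Slc25a1 in Brain was at 56.5, 54.9 and 55.2 CPM in Input and 108, 107 and 96.3 in Positive, a rise of 0.902 ± 0.067 without overlap (edgeR adjusted p = 8.82e-07). Retina Input held 19.7, 16.3 and 16.9 CPM and Retina Positive 37.1, 28.96 and 45.5, with Positive replicate 3 highest and no overlap (1.08 ± 0.17, edgeR adjusted p = 0.00295). In Choroid all Positive libraries were below all Input libraries, at 49.4, 41.4 and 49.9 against 75.3, 70.2 and 62.1 CPM, but the test was not passed (-0.55 ± 0.25, edgeR adjusted p = 0.107).

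Slc25a20 in Brain went from 18.3, 17.5 and 15.6 CPM in Input to 47.4, 46.3 and 47.1 in Positive, with tight and well separated groups (1.46 ± 0.083, edgeR adjusted p = 1.29e-07). In Retina it was at 18.4, 15.4 and 14.7 and 21.4, 18.4 and 26.5 CPM (0.45 ± 0.17), which did not pass (edgeR adjusted p = 0.0809) except without Positive replicate 2 (0.0451). In Choroid the values were 51.8, 70.2 and 56.5 and 42.1, 12.7 and 38.3 CPM, and Positive replicate 2, the library rich in Rn45s, was the lowest (-0.85 ± 0.37, edgeR adjusted p = 0.0915). The carnitine palmitoyltransferases that make and use acylcarnitines stood beside it. Cpt1a rose by 2.12 ± 0.076 in Brain, Cpt2 by 1.65 ± 0.12 and Cpt1b by 0.94 ± 0.18, and Cpt1c, the form found mainly in neurons, fell (-1.26 ± 0.060), while in Choroid Cpt2 fell (-0.94 ± 0.32) and Cpt1a was at -0.17 ± 0.299 (edgeR adjusted p = 0.702). The dicarboxylate carrier Slc25a10 rose slightly in Brain (0.26 ± 0.091, edgeR adjusted p = 0.0232), a call lost on leaving out replicate 2 or 3 of either fraction (0.06 to 0.108). The oxoglutarate carrier Slc25a11 did not pass in Brain or Retina (-0.034 and -0.014). In Choroid it stood at -0.57 ± 0.24 (edgeR adjusted p = 0.0867) and passed over the genes above the median level alone (-0.75, 0.0278).

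Of 8 amino acid carriers, 6 were lower and 2 higher in Brain Positive, where 39.7% of all genes were lower and 38.3% higher. In Retina 1 of 6 was lower (10.8% of all genes), and of the 4 listed in Choroid none passed (36.6% of all genes did). The glutamate carriers Slc25a22 and Slc25a18 and the aspartate/glutamate carriers Slc25a12 and Slc25a13, which form part of the malate-aspartate shuttle, were all lower in Brain Positive. Neuronal markers (7 of 7 listed and lower) fell beside them from 0.709 to 0.754% to 0.274 to 0.307% of Brain counts, and oligodendrocyte markers (5 of 5 listed and lower) from 0.439 to 0.496% to 0.0694 to 0.1397%, while astrocyte markers (6 of 6 listed, 1 higher and 5 lower) summed to 0.372 to 0.408% and 0.353 to 0.384%, with overlap. The part of these cells in the falls was not tested.

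Slc25a22 fell from 266, 285 and 270.1 to 127, 134 and 132 CPM in Brain, without overlap (-1.06 ± 0.061, edgeR adjusted p = 1.37e-07). Retina gave 217, 201 and 208 CPM in Input and 200.1, 204 and 167 in Positive (-0.13 ± 0.096, edgeR adjusted p = 0.353). Choroid held much less, 57.2, 52.998 and 38.1 and 44.6, 49.3 and 31.3 CPM (-0.25 ± 0.31, edgeR adjusted p = 0.556). Slc25a18, listed for Brain only, fell from 78.9, 71.5 and 78.3 to 34.6, 38.5 and 44.1 CPM (-0.96 ± 0.092, edgeR adjusted p = 5.72e-06). The ratio of Slc25a22 to Slc25a18 per length was 1.15 ± 0.106 in Input and 1.08 ± 0.114 in Positive, with overlapping libraries.

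Slc25a12 fell from 169, 175 and 182 to 124, 119 and 119 CPM in Brain without overlap (-0.54 ± 0.062, edgeR adjusted p = 2.28e-05). It stood at 120.4, 124 and 124 and 116, 130.5 and 108 CPM in Retina (-0.057 ± 0.086) and at 94.8, 112 and 111 and 83.01, 77.96 and 64.9 in Choroid (-0.495 ± 0.23), and neither passed (edgeR adjusted p = 0.668 and 0.1101), but over the genes above the median level alone Choroid did (-0.67, 0.0305). Slc25a13 was scarce in Brain, at 4.39, 4.44 and 4.96 CPM in Input and 1.83, 2.73 and 2.51 in Positive (-0.96 ± 0.19, edgeR adjusted p = 0.00105). Slc25a12 exceeded Slc25a13 per length by 19.7 ± 0.745 times in Input and 27.4 ± 6.79 times in Positive, the latter with 1 library well above the others (35.2, 22.6 and 24.5). Among the rest, the ornithine carrier Slc25a15 and the glycine carrier Slc25a38 rose in Brain (0.36 ± 0.096 and 0.38 ± 0.081). The basic amino acid carrier Slc25a29 fell in Brain (-0.49 ± 0.099) and in Retina, from 23.7, 22.9 and 26.6 to 19.02, 19.1 and 14.9 CPM (-0.47 ± 0.14, edgeR adjusted p = 0.0402). The Retina call for Slc25a29 was lost with the replicate block (edgeR adjusted p = 0.0742) and without any 1 library other than Positive replicate 2 (0.0587 to 0.13). Slc25a44, a carrier of branched-chain amino acids, fell by 0.23 in Brain, a call lost with the authors' factors (edgeR adjusted p = 0.06) and without Input replicate 2 or 3 (0.0628 and 0.0781).

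The iron carriers Slc25a37 and Slc25a28, known as mitoferrins, supply mitochondria with iron for heme and iron-sulfur clusters, and Slc25a37 serves heme synthesis in erythroid cells. Slc25a37 was lower in Positive in Brain and Retina, while Slc25a28 and the phosphate carrier Slc25a3 did not pass in any tissue. Slc25a37 fell from 29.5, 29.1 and 27.4 to 13.5, 13.3 and 14.8 CPM in Brain (-1.05 ± 0.088, edgeR adjusted p = 2.14e-06) and from 44.4, 35.7 and 34.1 to 25.1, 21.3 and 21.9 in Retina (-0.74 ± 0.13, edgeR adjusted p = 0.00509). Neither pair of groups overlapped. Choroid gave 31.2, 36.3 and 30.8 CPM in Input and 27.8, 38.2 and 24.9 in Positive, which overlapped (-0.14 ± 0.33, edgeR adjusted p = 0.769). Erythroid markers went from 0.0275 to 0.101% to 0.00699 to 0.0167% of counts in Brain (5 of 5 listed and lower) and from 0.00148 to 0.00263% to 0.00126 to 0.00398% in Retina (3 of 5 listed, none past the threshold), and their part in the fall of Slc25a37 was not tested. Slc25a3 differed by -0.085 ± 0.056 in Brain, 0.051 ± 0.085 in Retina and -0.42 ± 0.24 in Choroid.

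Slc25a28 in Brain was at 46.5, 45.7 and 46.1 CPM in Input and 41.9, 42.3 and 41.99 in Positive (-0.13 ± 0.060, edgeR adjusted p = 0.0694). In Retina it was at 50.2, 49.4 and 95.4 and 44.6, 39.99 and 41.3 CPM (-0.63 ± 0.24, edgeR adjusted p = 0.0962), and Input replicate 3 stood apart. Without that library the Retina difference was -0.25 (edgeR adjusted p = 0.143), and with it the DESeq2 Wald test passed (-0.61, adjusted p = 0.0491). In Choroid it was at 45.5, 23.1 and 37.4 and 27.8, 286 and 37.1 CPM (1.61 ± 0.71, edgeR adjusted p = 0.0966). The single high value there came from Positive replicate 2, and without that library the difference was -0.15 (edgeR adjusted p = 0.772). Without Positive replicate 1 or 3 the same comparison passed, at 2.12 and 2.07 (edgeR adjusted p = 0.0225 and 0.045). In both tissues the high library was the one with the largest shares of Rn45s and of Lars2 in its tissue. Retina Input replicate 3 had 0.314% Rn45s and 0.0403% Lars2, against 0.171% and 0.0305% or less in the other Retina libraries, and Choroid Positive replicate 2 had 13.0261% and 3.71%, against 1.09% and 0.124% or less. The part of these transcripts in the Slc25a28 values was not tested.

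The uncoupling-protein-like carriers Slc25a27, Slc25a14 and Slc25a30 were divided. Slc25a27, which is expressed mainly in the brain, had the largest fall of any member in Brain, from 38.7, 42.7 and 41.7 to 16.3, 12.1 and 17.1 CPM without overlap (-1.44 ± 0.13, edgeR adjusted p = 2.85e-06). In Retina it fell from 30.5, 28.5 and 29.4 to 22.2, 18.4 and 20.9 CPM (-0.52 ± 0.11, edgeR adjusted p = 0.0109), a call lost without Input replicate 1 (0.0567). Slc25a14 fell in Brain (-0.81 ± 0.071) and stood at -0.33 ± 0.13 in Retina (edgeR adjusted p = 0.1096). Slc25a30 went the other way. Its Brain values were 2.67, 2.22 and 3.35 CPM in Input and 7.51, 8.02 and 9.53 in Positive (1.603 ± 0.19, edgeR adjusted p = 2.55e-05). Its Retina values were 3.097, 2.195 and 2.44 and 6.28, 3.54 and 10.8 CPM (1.43 ± 0.39, edgeR adjusted p = 0.0283), with Positive replicate 2 only slightly above the highest Input library and the call lost without any 1 of the Input libraries (0.0624 to 0.112). None of the 3 was listed for Choroid.

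Among 8 carriers of nucleotides and cofactors, 2 rose and 4 fell in Brain, and Slc25a16, a carrier linked to coenzyme A, was the 1 that fell in Retina (of 8) and in Choroid (of 4). Of all genes, 38.3% were higher and 39.7% lower in Brain, 10.8% were lower in Retina and 20.2% were lower in Choroid. Slc25a16 went from 32.6, 45.6 and 59.6 to 26.3, 11.1 and 22.03 CPM in Choroid without overlap (-1.13 ± 0.38, edgeR adjusted p = 0.0333). The differences were smaller in Brain (-0.31 ± 0.084) and Retina (-0.36 ± 0.099, edgeR adjusted p = 0.0319). The Choroid call was lost without Input replicate 2 or 3 or Positive replicate 3 (edgeR adjusted p 0.0761 to 0.188). The Retina call was lost with the replicate block (0.0582) and without any 1 Input library or Positive replicate 1 (0.0848 to 0.117). The folate carrier Slc25a32 and the peroxisomal carrier Slc25a17 rose in Brain. Slc25a32 was at 8.33, 6.43 and 8.11 CPM in Input and 15.02, 14.95 and 16.8 in Positive (1.04 ± 0.13), and Slc25a17 at 38.5, 36.3 and 36.7 and 50.9, 60.6 and 56.03 (0.59 ± 0.078). In Retina Slc25a17 stood at 39.7, 40.3 and 39.8 and 35.1, 40.2 and 38.01 CPM, with overlap (-0.082 ± 0.091).

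The pyrimidine nucleotide carriers Slc25a33 and Slc25a36 also fell in Brain. Slc25a33 was at 58.5, 50.3 and 50.01 CPM in Input and 41.4, 41.4 and 42.7 in Positive (-0.34 ± 0.077), and Slc25a36 at 19.2, 27.9 and 28.8 and 20.3, 16.04 and 19.4 (-0.45 ± 0.16). The Slc25a36 groups overlapped, and its call was lost without Input replicate 2 or 3 or Positive replicate 2 (edgeR adjusted p 0.0803 to 0.093). In Retina Slc25a33 was at 109.9, 129 and 132 and 103, 115 and 75.5 CPM and Slc25a36 at 28.8, 30.5 and 31.6 and 27.1, 26.4 and 24.5, and neither passed. Slc25a33 exceeded Slc25a36 per length by 11.2 ± 3.77 and 11.6 ± 1.42 times in Brain and by 20.7 ± 1.15 and 19.1 ± 3.25 times in Retina (Input and Positive). The coenzyme A carrier Slc25a42 fell in Brain (-0.38 ± 0.099), and the S-adenosylmethionine carrier Slc25a26 did not pass in any tissue that listed it.

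Of the glutathione carriers, Slc25a39 rose in Brain and Slc25a40 did not pass. Slc25a39 went from 100.5, 87.3 and 91.4 to 144, 157 and 149 CPM without overlap (0.69 ± 0.074, edgeR adjusted p = 1.27e-05), and Slc25a40 was at 13.1, 14.3 and 15.4 and 14.3, 16.1 and 16.9 (0.14 ± 0.11, edgeR adjusted p = 0.256). In Retina Slc25a39 held 29.9, 30.97 and 37.1 and 33.2, 34.6 and 42.7 CPM, with overlap (0.18 ± 0.14), and Slc25a40 7.68, 8.301 and 8.35 and 11.1, 8.25 and 8.36 (0.19 ± 0.18). In Choroid Slc25a39 was at 96.95, 125 and 128 and 87.8, 95.5 and 89.3 CPM (-0.36 ± 0.22, edgeR adjusted p = 0.225). The ratio of Slc25a39 to Slc25a40 per length was 19.97 ± 2.94 in Brain Input and 29.1 ± 1.898 in Brain Positive, and 12.2 ± 1.13 and 12.5 ± 3.25 in Retina.

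Less well characterised carriers included Slc25a45, which rose in Brain and Retina, and Slc25a35, which rose in Brain. Slc25a45 went from 4.46, 3.07 and 3.41 to 11.1, 9.59 and 10.9 CPM in Brain (1.54 ± 0.17, edgeR adjusted p = 1.38e-05) and from 0.715, 1.13 and 0.188 to 4.396, 5.39 and 7.28 in Retina (3.01 ± 0.48, edgeR adjusted p = 0.00274). The Retina Input values rest on 27, 33 and 4 estimated counts, so the size of that rise is imprecise. In Retina, Slc25a45 was also listed through Positive alone, and the part of that filter in the rise was not tested. Slc25a35 rose in Brain from 5.76, 4.83 and 4.06 to 11.5, 13.8 and 11.8 CPM (1.35 ± 0.16, edgeR adjusted p = 2.40e-05), with no overlap, and was at -0.24 ± 0.12 in Retina (edgeR adjusted p = 0.203). Slc25a34 and Slc25a46, the latter an outer membrane protein linked to mitochondrial fission, fell in Brain (-0.66 ± 0.13 and -0.61 ± 0.060). Slc25a47 did not pass in Brain or Retina (-0.033 and 0.078). Its gene model in GENCODE vM21 begins at 108836046 on the forward strand of chromosome 12. The neighbour Slc25a29 lies on the reverse strand, so its upper coordinate in the same annotation, 108835883, is where it begins.

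Whether the enrichment itself differed between tissues was tested as an interaction over the 22 members and 7270 genes listed in all 3 tables. Each value is the first-named tissue's log2 Positive over Input minus the second's. Between Retina and Brain 5 of 22 members differed (2 up, 3 down), against 29.8% of genes (11% up, 18.8% down). Between Choroid and Brain 10 differed (4 up, 6 down), against 51.8% (21.4% up, 30.5% down), and between Choroid and Retina 7 differed (3 up, 4 down), against 45% (21.7% up, 23.3% down). The comparisons share libraries, since each tissue enters 2 of them. The mean summed share of the endothelial markers went from 0.0155 to 0.478% in Brain, 0.0054 to 0.288% in Retina and 0.19 to 1.23% in Choroid. That rise was by the smallest factor in Choroid, and its part in the differences below was not tested.

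Slc25a24 was less enriched in Choroid than in Brain (-2.25 ± 0.35, edgeR adjusted p = 3.68e-05) and than in Retina (-1.64 ± 0.35, edgeR adjusted p = 0.00115). The same held for Slc25a1 (-1.25 ± 0.21 and -1.38 ± 0.21), Slc25a4 (-1.24 ± 0.17 and -1.27 ± 0.17) and Slc25a20 (-2.05 ± 0.31 and -0.995 ± 0.32), each with an edgeR adjusted p of at most 0.0159. Slc25a20 also differed between Retina and Brain (-1.06 ± 0.29, edgeR adjusted p = 0.0103). Slc25a25 and Slc25a37 went the other way, with Choroid above Brain by 1.22 ± 0.25 and 1.06 ± 0.24 and above Retina by 1.48 ± 0.25 and 0.802 ± 0.24. Slc25a22, which fell in Brain, differed from Brain by 0.89 ± 0.201 in Retina and by 0.99 ± 0.23 in Choroid (edgeR adjusted p = 0.00313 and 0.00151).

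The calls of most other interactions were lost under some settings. Slc25a28 differed between Choroid and Retina by 2.28 ± 0.77 (edgeR adjusted p = 0.0215), which became 0.67 (0.148) without Choroid Positive replicate 2, 1.64 (0.106) with the replicate block, 1.93 (0.0592) without Retina Input replicate 3 and 2.05 (0.0501) without Choroid Input replicate 2. Slc25a39 differed by -0.56 ± 0.17 between Retina and Brain (edgeR adjusted p = 0.0199) and by -0.88 ± 0.18 between Choroid and Brain (5.94e-04). The second of these was kept in each alternative run. The first was lost with DESeq2 size factors (-0.34, 0.137), the DESeq2 Wald test and the filter at the median level, and without Brain Input replicate 2 or 3, Brain Positive replicate 2, Retina Input replicate 3 or Retina Positive replicate 1 (0.0518 to 0.0674). Slc25a17 (-0.72 ± 0.24, edgeR adjusted p = 0.0334) was lost without any 1 of 9 libraries of Brain and Retina (0.0599 to 0.0904), all but Brain Positive replicate 1, Retina Positive replicate 2 and Retina Positive replicate 3. Slc25a12 (0.43 ± 0.15, edgeR adjusted p = 0.0423) was lost with the block (0.0596) and without any 1 of 10 libraries, all of Brain and Retina but Brain Input replicate 1 and Retina Positive replicate 3 (0.0674 to 0.12). Slc25a10 between Choroid and Brain (-0.75 ± 0.28, edgeR adjusted p = 0.0356) was lost with the block (0.0561) and without any 1 of 8 libraries, all of these tissues but Brain Input replicate 1, Choroid Input replicate 2 and Choroid Positive replicates 2 and 3 (0.0552 to 0.168). Slc25a46 differed there by 0.62 ± 0.22 (edgeR adjusted p = 0.0246, and 0.0737 without Choroid Input replicate 3). Between Retina and Brain Slc25a46 did not pass, but it did with the block, with DESeq2 size factors and in the DESeq2 Wald test (0.749, adjusted p = 6.61e-04). It also passed without Retina Positive replicate 3, Choroid Input replicate 2 or 3, or Choroid Positive replicate 1 or 2 (edgeR adjusted p 0.0177 to 0.0488).

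**Figure D4:**
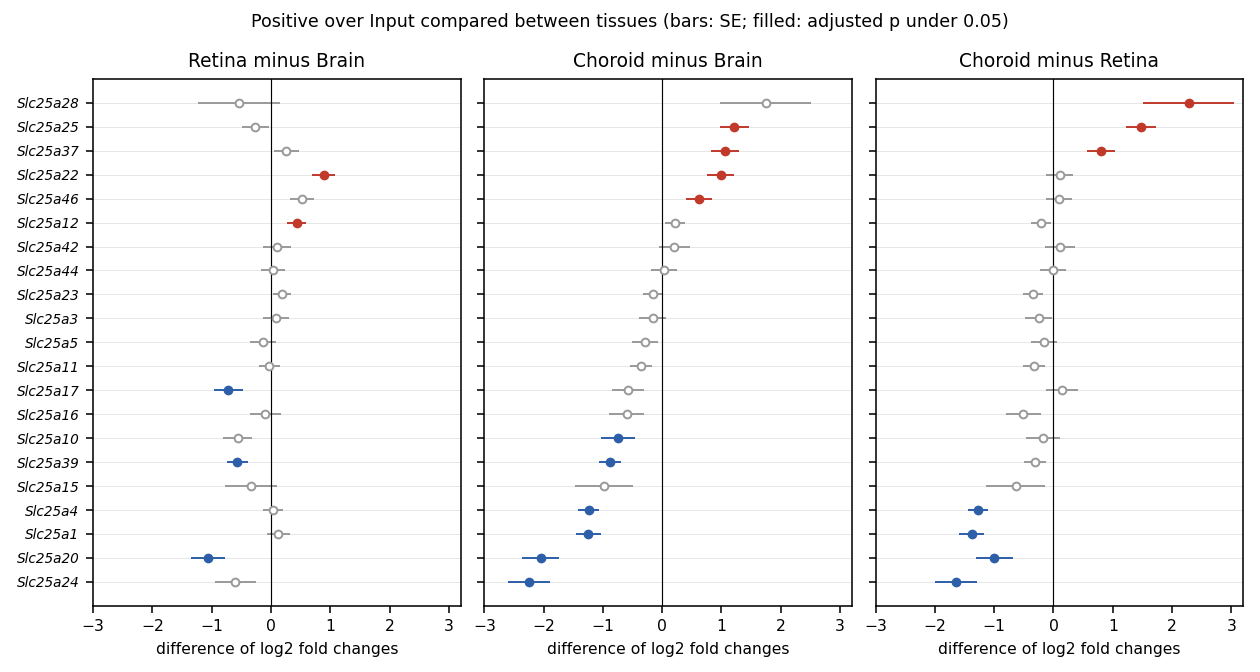
Difference in log2 Positive over Input between tissues (horizontal axis) with its SE for members listed in all 3 tables, with 1 of the 22 left out, in 1 panel per pair of tissues. Filled points passed an adjusted p of 0.05 in the interaction test, and Slc25a24, Slc25a1, Slc25a4 and Slc25a20 lie on the lower side for Choroid in both of its panels.

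The Positive fractions were then set against each other to compare the carriers between tissues, with the same 22 members and 7270 genes scaled jointly across tables that had been filtered separately. These fractions hold RNA of other cells too, since photoreceptor markers made up 3.16 to 5.296% of Retina Positive counts against 0.0237 to 0.0421% in Choroid Positive, and the part of such cells in the differences was not tested. Between Retina and Brain 4 members were higher in Retina and 5 lower, against 29.5% and 27.6% of genes (57.1% in all). Choroid had 3 members above Brain and 11 below, against 28.9% and 24% (52.9% in all), and 3 members above Retina and 9 below, against 31.4% and 31% (62.4% in all). The same comparison of Input fractions gave 3 members higher and 6 lower in Retina than in Brain (34.7% and 32.8% of genes, 67.4% in all), 5 higher and 9 lower in Choroid than in Brain (36.6% and 37.1%, 73.7% in all), and 6 higher and 9 lower in Choroid than in Retina (34.8% and 44.7%, 79.6% in all).

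On this joint scale Slc25a24 was highest in Choroid Positive (83.1, 103 and 66.04 CPM), lower in Brain Positive (38.5, 36.8 and 31.5) and lowest in Retina Positive (18.9, 21.01 and 30.1). Choroid exceeded Brain by 1.21 ± 0.22 and Retina by 1.81 ± 0.23 (edgeR adjusted p = 0.00113 and 5.30e-05). Retina lay below Brain by -0.604 ± 0.21 (edgeR adjusted p = 0.0298). That call was lost with the replicate number as a block across tissues (0.0583), which is not a pairing by homogenate. It was also lost without Brain Positive replicate 1 or 2 or Retina Positive replicate 1 or 2 (0.0722 to 0.0971). The Input levels were further apart, at 38.3, 23.3 and 39.8 CPM in Choroid, 3.61, 3.17 and 3.796 in Brain and 3.91, 3.38 and 2.15 in Retina, with Choroid above Brain by 3.29 ± 0.28.

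Slc25a23 and Slc25a22 were lowest in Choroid in both fractions. In Positive, Slc25a23 was at 262, 256 and 291 CPM in Brain, 181, 167 and 166 in Retina and 59.97, 69.9 and 60.9 in Choroid, and no group overlapped another. Choroid lay below Brain by -2.104 ± 0.13 and below Retina by -1.45 ± 0.13. Slc25a22 was highest in Retina Positive (241, 241 and 189.8 CPM), lower in Brain (132, 139 and 138) and lowest in Choroid (49.4, 54.2 and 34.96), with differences of 0.72 ± 0.15 for Retina minus Brain and -2.31 ± 0.18 for Choroid minus Retina. Slc25a39 was lowest in Retina Positive, at 40.03, 40.9 and 48.6 CPM against 149, 163 and 156 in Brain and 97.3, 105 and 99.7 in Choroid (-1.85 ± 0.12 and 1.21 ± 0.13).

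Slc25a1 was highest in Brain Positive (112, 111 and 101 CPM), against 54.7, 45.4 and 55.7 in Choroid and 44.7, 34.2 and 51.7 in Retina. Brain was above Choroid and Retina (-1.03 ± 0.18 and -1.304 ± 0.16), and the Choroid and Retina groups did not differ by the test (0.28 ± 0.18, edgeR adjusted p = 0.204). Slc25a37 was lowest in Brain Positive (13.97, 13.7 and 15.5 CPM), below Retina (30.2, 25.2 and 24.9) by 0.90 and below Choroid (30.8, 41.9 and 27.8) by 1.17 on the log2 scale, and Retina and Choroid did not differ by the test (edgeR adjusted p = 0.289). Slc25a4 was at 720.3, 749 and 723 CPM in Brain and 768, 820.1 and 658 in Retina Positive, which overlapped, and at 389, 351 and 376 in Choroid Positive (-0.97 ± 0.14 against Brain, edgeR adjusted p = 1.69e-04). In Input, Slc25a4 in Choroid differed from Brain by 0.11 ± 0.11 (edgeR adjusted p = 0.412), and by 0.53 (0.00164) over the genes above the median level alone.

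Other proteins of mitochondrial transport gave context, from lists of channels, importers and regulators of which 50 genes were tested in Brain, 48 in Retina and 35 in Choroid. In Brain 16 were higher in Positive and 27 lower, in Retina 5 and 6, and in Choroid none was higher and 7 were lower, beside 38.3% and 39.7% of all genes in Brain, 15.3% and 10.8% in Retina, and 16.3% and 20.2% in Choroid. Ucp2, a family member under another name that is also classed as an uncoupling protein, rose in Brain (3.36 ± 0.11) and Retina (3.22 ± 0.39) and fell in Choroid (-1.02 ± 0.18, edgeR adjusted p = 8.23e-04). Its levels were 40.8 ± 5.36 CPM (SD, n = 3) in Brain Input and 418 ± 38.8 in Brain Positive, and 476 ± 15.4 and 235 ± 1.03 in Choroid. Retina Input held 14.2 ± 2.66 CPM and Retina Positive 133 ± 78.3, the widest spread of the 6 groups.

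Of 7 genes for calcium uptake and exchange by mitochondria, 4 rose and 2 fell in Brain and 3 rose in Retina. For these and the lists below, the shares of all genes were 38.3% higher and 39.7% lower in Brain. They were 15.3% and 10.8% in Retina, and 16.3% and 20.2% in Choroid. The 4 calcium genes that rose in Brain included Slc24a6, the older symbol of the sodium/calcium exchanger Slc8b1, which moves calcium out of the matrix (0.96 ± 0.12). Ccdc109b, the older symbol of the uniporter subunit Mcub, rose most (2.57 ± 0.204 in Brain and 2.37 ± 0.34 in Retina), and Efha2, the older symbol of Micu3, fell most in Brain (-1.16 ± 0.074). None of the 5 tested in Choroid passed. All 4 mitochondrial ABC transporters fell in Brain, 2 of 4 fell in Retina and 1 of 2 in Choroid (Abcb8, -1.36 ± 0.34). Among genes for import of carrier proteins 4 of 10 rose and 5 fell in Brain, and none of 10 in Retina or 8 in Choroid passed. Of the outer membrane channels, Vdac1 fell in Brain (-0.53 ± 0.061) and Choroid (-0.86 ± 0.22). In the list of pyruvate carriers and sideroflexins, Mpc1 fell in Brain (-0.31 ± 0.064) and Choroid (-1.21 ± 0.35), and Sfxn5 fell in Brain (-1.05 ± 0.078). Ppargc1a, a coactivator of mitochondrial biogenesis, fell in all 3 tissues, by 0.83 in Brain, 0.34 in Retina and 1.89 in Choroid on the log2 scale (edgeR adjusted p = 1.67e-05, 0.0497 and 8.63e-04).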

How the data were processed

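Per the labels, 3 Input and 3 Positive libraries per tissue were made with a directional kit. Each tissue has its own deposited table, whose raw columns hold the authors' estimated counts, judging from the headers and from the fractions among the values. The normalized columns, which the authors put on a log2 scale, served only to recover the authors' scaling factors. Per the file headers, genes were kept at a raw value of 50 or more in all libraries of at least 1 fraction. The genome build mm10 and the tool DESeq are named in the submitters' processing notes, while which aligner and counter were used, and whether strand was, is not given in the sources used here.

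Members and gene lists were chosen with earlier results of these data known. The values of 1 member, which is part of the counts, are not reported here. Expected counts were rounded and each whole table was fitted with edgeR 4.0.16 (TMM, quasi-likelihood F test; filterByExpr, set to a minimum of 10 counts, dropped 0 genes). Interactions used all 18 libraries, and comparisons of like fractions 9 libraries, over the 7270 genes listed in all tables. The p-values were adjusted by Benjamini-Hochberg across each fit, and 0.05 was the threshold. Levels are CPM after TMM scaling, with SD over 3 libraries, and the SE is that of the log2 difference. Lengths are the union of exons in GENCODE vM21. With 3 libraries against 3, an exact two-sided permutation test of a single value cannot go below 0.1, so none was used. The script was tested on simulated counts, where a minimum recovery of changed genes was required only of comparisons without Choroid.

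Libraries that share a number within a tissue were taken from a single homogenate, per the labels, and so are pairs. The main fits ignored this pairing, which entered only as the replicate block among the alternatives. Deviations from the group means of same-numbered libraries correlated at 0.19, 0.147 and 0.169 in Brain, 0.102, 0.281 and 0.0014 in Retina, and 0.188, 0.202 and 0.137 in Choroid. Input and Positive libraries of different numbers ranged from -0.153 to 0.0131 in Brain, -0.323 to 0.18 in Retina and -0.201 to 0.0662 in Choroid.

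Values per library are given for the 5 members with the largest rise and the 5 with the largest fall past the threshold without overlap in each tissue, for pairs of related members, and for up to 6 members per interaction. Slc25a32 and members named for a lost call were added after their values were seen. Alternatives were DESeq2 1.42.0 (size factors, Wald test), the authors' factors, no filter and a filter at the median level, an adjusted p under 0.01, leaving out Rn45s and Lars2, the replicate block, each library left out, and other lengths and totals for levels. The block across tissues and the Slc25a28 values without Choroid Positive replicate 2 were added after seeing the data. Reads that closely related copies share can be split by counting. The promoter windows, for 30 of 38 members, hold the 250 bases before the RefSeq start.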

Additional observations from a re-analysis of the deposited data

Results flagged for a closer look

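The differences between tissues in Positive over Input that passed edgeR's interaction test were singled out, as log2 differences, and they are values with no explanation attached. Between Retina and Brain they were Slc25a20 (-1.06), Slc25a17 (-0.72) and Slc25a39 (-0.56), lower in Retina, and Slc25a22 (0.89) and Slc25a12 (0.43), higher in Retina. Between Choroid and Brain they were Slc25a24 (-2.25), Slc25a20 (-2.05), Slc25a1 (-1.25), Slc25a4 (-1.24), Slc25a39 (-0.88) and Slc25a10 (-0.75), lower in Choroid. Slc25a25 (1.22), Slc25a37 (1.06), Slc25a22 (0.99) and Slc25a46 (0.62) were higher in Choroid than in Brain. Between Choroid and Retina they were Slc25a24 (-1.64), Slc25a1 (-1.38), Slc25a4 (-1.27) and Slc25a20 (-0.995), lower in Choroid, and Slc25a28 (2.28), Slc25a25 (1.48) and Slc25a37 (0.802), higher in Choroid. The Slc25a28 value rests on Choroid Positive replicate 2, without which it was 0.67 (edgeR adjusted p = 0.148). Groups of 3 libraries were not tested for a single stray library.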

How the results depend on the processing

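Across 12 comparisons, 139 calls of single members were made. Of these, 56 were kept under every alternative, 47 were kept in those that tested them but were not tested in all, 36 were lost under at least 1 and 0 reversed. The threshold of 0.01 was 1 of these alternatives. A call with a main edgeR adjusted p between 0.01 and 0.05 was therefore lost by definition. Another 53 that had not passed did so under at least 1 in the same direction. A filter at the median level, which keeps 19, 15 and 7 members in Brain, Retina and Choroid and 10 or 11 in joint fits, gave 4 higher and 10 lower members in Brain, 0 and 2 in Retina, and 0 and 5 in Choroid. With it, 3 members differed in the interaction of Retina with Brain and 5 in that of Choroid with Brain. Between Positive fractions 5 differed for Retina with Brain and 9 for Choroid with Brain, and between Input fractions 8 for Choroid with Brain and 6 for Choroid with Retina. The count falls with fewer members tested, and for the 5 lower in Choroid the cause was not tested. An adjusted p under 0.01 left 2 lower members in Retina, 1 higher in Choroid, 1 in the interaction of Retina with Brain and 4 in that of Choroid with Retina. With the authors' factors 1 member was higher in Choroid. Leaving out 1 library gave 11 to 12 higher and 14 to 17 lower members in Brain, 3 to 6 and 2 to 6 in Retina, and 1 to 3 and 2 to 3 in Choroid. The interactions ranged over 2 to 7 (Retina with Brain), 8 to 12 (Choroid with Brain) and 6 to 9 (Choroid with Retina), the Positive fractions over 7 to 11, 13 to 15 and 10 to 14, and the Input fractions over 8 to 14, 14 to 16 and 14 to 17 in the same order. Slc25a28 in Choroid Positive minus Retina Positive turned from 1.17 (edgeR adjusted p = 0.15) to -0.47 (0.0253) without Choroid Positive replicate 2, and it ranged up to 1.70 (0.0334) without replicate 1. The replicate block moved no count by more than 1.5 times. In comparisons of like fractions it joins same-numbered libraries of different tissues, which are not pairs from a homogenate. Beside the calls named above, a block of this second kind ended that of Slc25a42 between Choroid and Retina Positive (0.57, edgeR adjusted p = 0.0736 with the block against 0.0385). DESeq2 size factors moved the median of all genes from -0.18 to -0.046 in Choroid Input minus Retina Input, from -0.095 to 0.13 in the interaction of Retina with Brain and from -0.089 to 0.048 in that of Choroid with Brain. The filter at the median level moved it to 0.23 in the interaction of Retina with Brain, from 0.073 to -0.25 in that of Choroid with Retina, from -0.0075 to 0.12 in Choroid Input minus Brain Input and to -0.04 in Choroid Input minus Retina Input. Choroid Positive replicate 2 limits every Choroid value, with 713733 listed counts.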
